A study of Mus musculus with 6 samples.

Results

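The immediate early and AP-1 genes described here are Fos, Fosb, Fosl2, Jun, Junb, Jund, Atf3, Egr1, Ier2 and Dusp1, read in bulk RNA sequencing of epithelial cells sorted from embryonic mouse lung. They were taken by gene symbol and found in the count table by Entrez identifier, which gave 10 genes of 27179 in the table, and 10 of 10 passed the filter on low counts that left 14842 genes to test. The samples were EpCAM-positive cells (EpCAM is an epithelial surface protein) taken by flow sorting after E16.5 lungs had been digested with enzymes, with the pellets frozen before RNA was made. Control libraries came from Shh-Cre;Grhl2f/+ embryos (n = 3, replicates 1, 3 and 7) and knockout libraries, called Grhl2_cKO, from Shh-Cre;Grhl2f/- embryos (n = 3, replicates 1, 5 and 10). Both genotypes thus carry the Cre driven by Sonic hedgehog, which acts in lung epithelium, and 1 floxed allele of the transcription factor gene Grhl2. The other allele is intact in controls and null in Grhl2_cKO, so controls are heterozygous wherever Cre acted. Each genotype has 2 male libraries and 1 female library, and 6 of 6 ran in lane 8. The labels do not say whether a library is 1 embryo, so p-values measure the spread between these libraries.

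Immediate early genes are switched on within minutes of a signal, from factors already present in the cell, and their short-lived messenger RNAs decay soon afterwards. Fos and Jun family proteins pair through leucine zippers to form AP-1, which binds DNA at many enhancers, while Atf3, Egr1 and Ier2 encode further early regulators and Dusp1 a phosphatase that turns MAP kinases off. Warm digestion of a tissue is a known trigger of the whole group, so their level in sorted cells is often read as a sign of handling. The question here was whether genotype or the single library accounts for how these genes vary. No undigested lung is among the samples, so a response to digestion and expression in the intact lung cannot be told apart. In bulk RNA, fewer cells expressing a gene and less RNA per cell cannot be told apart either.

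Total counts were 13472216 to 17228762 per library, with control replicate 1 the lowest. Grhl2 was lower in each Grhl2_cKO library (log2 fold change -0.43 ± 0.06 SE, n = 3 per group, edgeR adjusted p = 0.0026), as was Epcam, at 67.6% of control (edgeR adjusted p = 0.00412). The 8 epithelial markers, among them Sftpc, Nkx2-1 and Cdh1, were detected in every library and summed to 14780 to 17570 CPM (counts scaled to library size). Sftpc alone held 12594 to 15449 CPM, so the sum says little of the others. Epcam, Cdh1, Krt8, Krt18 and Sox2 were highest in control replicate 1, Krt8 at 1.54 times the mean of the other libraries. Nkx2-1, Sftpc and Sox9 were not highest there. Immune markers, of cells that also express early genes, summed to 7.03 to 11.97 CPM, endothelial markers to 110.0 to 167.8 CPM and mesenchymal markers to 813 to 1695 CPM. Control replicate 1 stood apart from the other libraries in the genes of this report, and values are given with and without it. It was singled out by its values for these same genes, and p-values without it do not allow for that choice.

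All 10 genes were highest in control replicate 1. No member passed the genotype test (quasi-likelihood test of edgeR, p adjusted over all genes tested by Benjamini and Hochberg, threshold 0.05), where 3.62% of tested genes did, 2.39% of tested genes in the lower direction. The estimated log2 fold changes were all negative, and their median was -0.32 beside 0 over all tested genes. Without control replicate 1 the median was -0.09, and 7 of 10 lay below 0. At an unadjusted p under 0.05, 4 members were lower in Grhl2_cKO (Fos, Junb, Egr1 and Ier2), beside 7.29% of tested genes, and none was higher. Without control replicate 1 only Junb was lower at that level, beside 6.79% of tested genes, while Atf3 and Dusp1 were higher, beside 7.01%. As all 10 genes were highest in the library left out, an upward shift of their log2 fold changes was fixed in advance. DESeq2 called 1 member lower, Egr1 (adjusted p = 0.0301), and limma-voom called none.

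**Figure D1:**
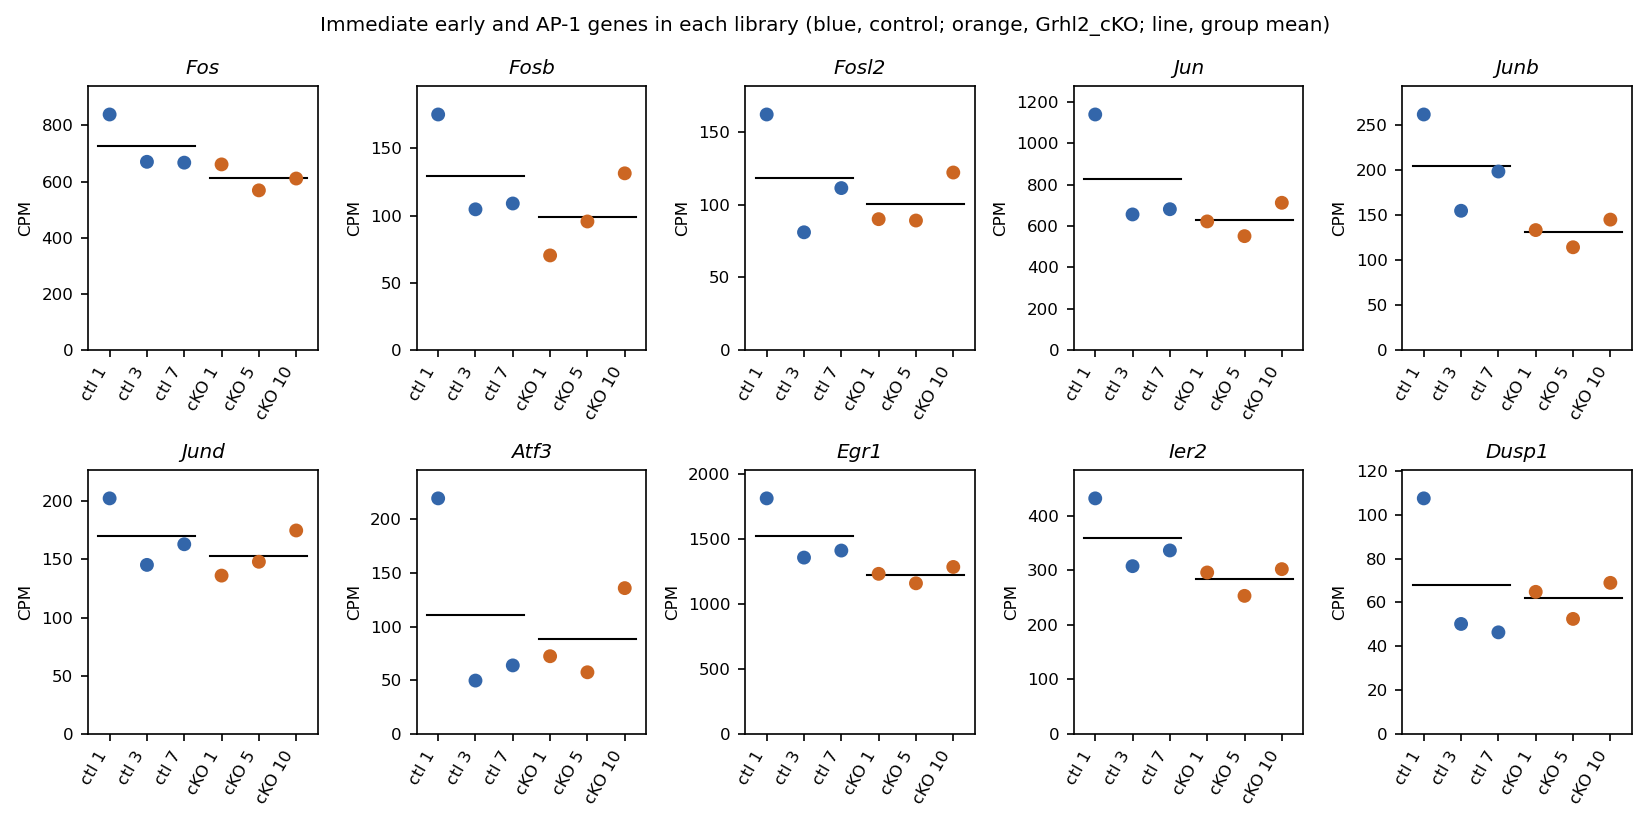
Level of each of the 10 genes in CPM (vertical axes, from 0) in the 3 control libraries (blue, ctl) and 3 Grhl2_cKO libraries (orange, cKO), with the replicate number on the horizontal axis and a line at each group's mean. Control replicate 1 is the highest point in each panel.

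Among the Fos family, whose members bind DNA only as partners of other zipper proteins, Fos itself is the founding immediate early gene (Entrez 14281, chromosome 12, 85473890 to 85477274, mm10, plus strand, 4 exons). Controls, in the order of replicates 1, 3 and 7, measured 839, 671 and 668 CPM, and Grhl2_cKO, in the order 1, 5 and 10, measured 661, 569 and 611 CPM. The groups did not overlap, but the lowest control and the highest Grhl2_cKO library were nearly level. Its log2 fold change came to -0.24 ± 0.10 (SE, 3 libraries per group; 95% interval -0.46 to -0.02, edgeR adjusted p = 0.308), and without control replicate 1 it was -0.12 ± 0.08.

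Fosb encodes a Fos relative best known from neurons (chromosome 7, 19302696 to 19310118, 4 exons). It stood at 175, 105 and 109 CPM in controls and at 70.4, 95.7 and 132 CPM in Grhl2_cKO, in the same order of replicates. Grhl2_cKO replicate 10 was above 2 of the 3 controls, so the groups overlapped (log2 fold change -0.39 ± 0.23, edgeR adjusted p = 0.59), and without control replicate 1 the value was -0.10 ± 0.19. Fosl2, which encodes Fra-2 (chromosome 5, 32136472 to 32157840, 4 exons), held 162, 81.0 and 111 CPM in controls and 90.0, 89.1 and 122 CPM in Grhl2_cKO. Its lowest and highest libraries were both controls. The log2 fold change of -0.23 ± 0.21 (edgeR adjusted p = 0.795) became 0.07 ± 0.15 without control replicate 1.

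The Jun family proteins are the partners of Fos and can also pair with one another. Jun (Entrez 16476, chromosome 4, 95049036 to 95052222, minus strand, 1 exon) stood at 1139, 655 and 681 CPM in controls and at 622, 551 and 712 CPM in Grhl2_cKO. Control replicate 1 alone lay far from the rest, at 1.77 times the mean of the other 5 libraries, and Grhl2_cKO replicate 10 was above the other 2 controls. The log2 fold change was -0.39 ± 0.19 (95% interval -0.81 to 0.03, edgeR adjusted p = 0.43) with all libraries and -0.08 ± 0.10 without control replicate 1. Jund, the member of the family that is expressed most steadily in unstimulated cells (chromosome 8, 70697739 to 70700616, plus strand, 1 exon), held 202, 145 and 163 CPM in controls and 136, 148 and 175 CPM in Grhl2_cKO. Its groups overlapped, and the log2 fold change was -0.15 ± 0.12 (edgeR adjusted p = 0.744), or 0.00 ± 0.10 without that library. The antisense genes Junos and Gm11175 overlap Jun and Jund on the opposite strand, and the sources used here do not give the strand setting of the counting step, so the counts of Jun and Jund are uncertain to that extent.

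Junb, whose protein often restrains Jun, had the largest difference between genotypes among the 10 (Entrez 16477, chromosome 8, 84976909 to 84978748, minus strand, 1 exon). It stood at 262, 155 and 199 CPM in controls and at 133, 114 and 145 CPM in Grhl2_cKO. Every Grhl2_cKO library was below every control. The mean of 205.2 ± 53.9 CPM (SD) in controls and 130.9 ± 15.5 CPM in Grhl2_cKO gave a log2 fold change of -0.65 ± 0.16 (95% interval -1.01 to -0.29), just outside the threshold (edgeR adjusted p = 0.0591). Without control replicate 1 it was -0.42 ± 0.11 (edgeR adjusted p = 0.0805). Junb was called without control replicate 3 (edgeR adjusted p = 0.0157), and over its alternatives the adjusted p ran from 0.0157 to 0.25.

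Egr1 and Ier2 encode early regulators outside the zipper families. Egr1, a zinc finger factor that sits directly under the ERK pathway (Entrez 13653, chromosome 18, 34861207 to 34864956, plus strand, 2 exons), was the most abundant of the 10, at 1812, 1357 and 1411 CPM in controls and 1232, 1159 and 1284 CPM in Grhl2_cKO. The groups did not overlap, with a log2 fold change of -0.32 ± 0.11 (95% interval -0.57 to -0.07, edgeR adjusted p = 0.206; 0.0301 to 0.499 over its alternatives). Without control replicate 1 it was -0.17 ± 0.09, and the 2 remaining controls still lay above the 3 Grhl2_cKO libraries. Ier2, an intronless early gene whose protein acts in the nucleus (chromosome 8, 84661331 to 84662852, 1 exon), followed the same order of libraries as Egr1 and Junb, at 432, 308 and 337 CPM in controls and 296, 253 and 302 CPM in Grhl2_cKO. Its groups did not overlap either (log2 fold change -0.34 ± 0.12, edgeR adjusted p = 0.202), and the value was -0.17 ± 0.09 without control replicate 1.

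Atf3, a stress-induced factor that pairs with Jun proteins (Entrez 11910, chromosome 1, 191170296 to 191183333, minus strand, 4 exons), varied most. It stood at 219.6, 49.7 and 63.9 CPM in controls and at 72.45, 57.5 and 136 CPM in Grhl2_cKO, a range of 4.42 times between the highest and lowest library, both of them controls. Control replicate 1 held 3.87 times the mean of the other controls, and Grhl2_cKO replicate 10 held 2.09 times the mean of the other Grhl2_cKO libraries. The log2 fold change of -0.32 ± 0.50 (95% interval -1.43 to 0.79, edgeR adjusted p = 0.916) covers both a fall and a rise, and it was 0.65 ± 0.28 without control replicate 1 (edgeR adjusted p = 0.334).

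Dusp1, the feedback phosphatase (Entrez 19252, chromosome 17, 26505591 to 26508472, minus strand, 4 exons), likewise depended on 1 library for its sign. It stood at 107, 50.2 and 46.3 CPM in controls and at 64.8, 52.5 and 68.9 CPM in Grhl2_cKO. Control replicate 1 was the highest of the 6 and the other 2 controls were the lowest. The log2 fold change was -0.13 ± 0.27 (edgeR adjusted p = 0.951) with all libraries and 0.37 ± 0.11 without control replicate 1 (edgeR adjusted p = 0.112).

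**Figure D2:**
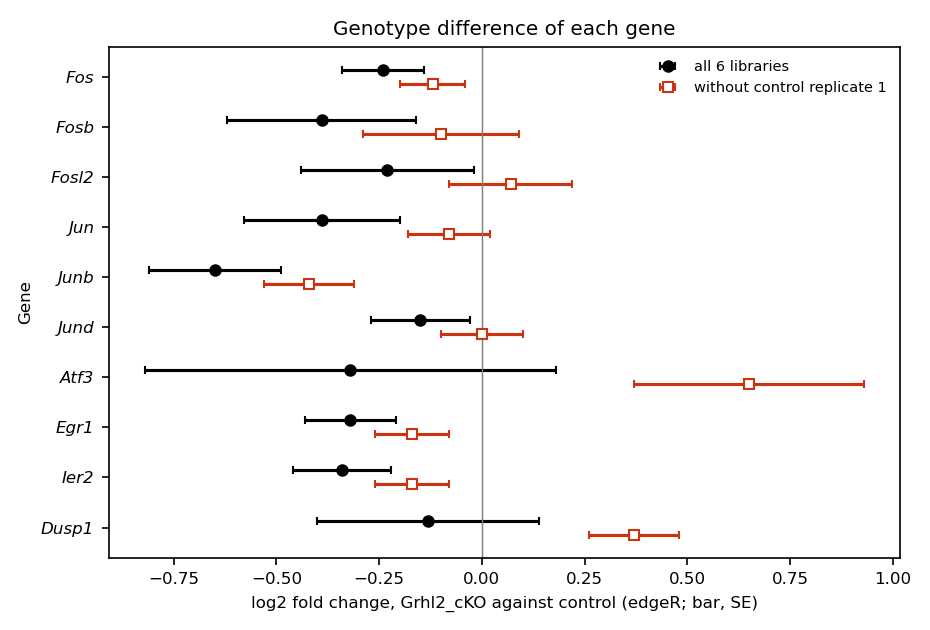
Log2 fold change of Grhl2_cKO against control (horizontal axis; edgeR, bars show the SE) for each gene (vertical axis), with all 6 libraries (black circles) and without control replicate 1 (red open squares). The 10 values with all libraries lie below 0, and without control replicate 1 those of Fosl2, Atf3 and Dusp1 lie above 0.

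Control and Grhl2_cKO libraries were fully separated in CPM for 4 members, Fos, Junb, Egr1 and Ier2, each lower in Grhl2_cKO, beside 9.89% of all tested genes in that direction. Because control replicate 1 was the highest control for each of them, leaving it out kept these 4 apart, beside 16.1% of tested genes lower in Grhl2_cKO with 2 controls against 3. Dusp1 then joined as higher in Grhl2_cKO without overlap, beside 13.8% of tested genes higher.

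Levels were compared between genes as CPM per kilobase of the gene length in the table. Control means were 497 ± 81.0 for Egr1, 347 ± 46.9 for Fos, 259 ± 85.3 for Jun, 236 ± 42.8 for Ier2 and 111 ± 29.3 for Junb (SD, n = 3). The others followed with Jund at 59.2 ± 10.2, Atf3 at 56.2 ± 47.7, Dusp1 at 35.0 ± 17.6, Fosb at 34.3 ± 10.5 and Fosl2 at 20.1 ± 6.98. The order of the means was the same in Grhl2_cKO, from 399 ± 20.5 for Egr1 to 17.1 ± 3.21 for Fosl2. The neighbours Jun and Ier2, Jund and Atf3, and Dusp1 and Fosb differed by less than the SD of either gene in controls.

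The libraries were then read one by one. Each gene's log2 CPM was centred on its mean over the 6 libraries and the 10 genes were averaged. This level was 0.63 in control replicate 1, -0.19 in replicate 3 and -0.04 in replicate 7, and it was -0.20 in Grhl2_cKO replicate 1, -0.30 in replicate 5 and 0.10 in replicate 10. Control replicate 1 thus stood at 1.55 times the geometric mean of the 6 libraries, and Grhl2_cKO replicate 10 was the next, ahead of 2 controls. The SD of this level within a genotype was 0.44 among controls and 0.21 among Grhl2_cKO libraries. The 4 libraries other than these 2 lay between -0.30 and -0.04. Within that band both controls lay above both Grhl2_cKO libraries, with control replicate 3 (-0.19) and Grhl2_cKO replicate 1 (-0.20) nearly level. For 6 of the 10 genes (Fosb, Fosl2, Jun, Jund, Atf3 and Dusp1) the 2 highest libraries were control replicate 1 and Grhl2_cKO replicate 10, as they were for 11.8% of all tested genes. For Fos, Junb, Egr1 and Ier2 the 3 controls were the top 3 libraries.

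No member passed the genotype test, and the share of a member's spread that lay between genotypes varied with the libraries used. With all 6, the share of the variance of log2 CPM that lay between genotypes was 62.4% for Junb, 55.3% for Egr1, 48.9% for Ier2, 46.9% for Fos, 28.7% for Jun, 23.6% for Fosb, 15.1% for Jund, 8.07% for Fosl2, 0.44% for Atf3 and 0.145% for Dusp1. The median of 26.1% compares with 15.3% over all tested genes. The spread within genotypes was wide: the SD of log2 CPM within groups ran from 0.15 for Fos to 0.93 for Atf3, with a median of 0.32 beside 0.12 over all tested genes and 0.08 over the 5066 tested genes with a mean of 50 CPM or more. Against those 5066 genes, the members stood at the percentiles 91.0 (Fos) and above. Without control replicate 1 the median within-group SD of the members was 0.17, beside 0.11 over all tested genes, and the median share between genotypes was 37.1%, beside 23.5%. That share was then 74.6% for Egr1, 63.8% for Junb, 46.5% for Ier2 and 45.1% for Fos. It was 62.2% for Dusp1 and 29.2% for Atf3, both with the higher mean in Grhl2_cKO, and 13.8% for Jun, 6.52% for Fosb, 2.02% for Fosl2 and 0.406% for Jund.

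**Figure D3:**
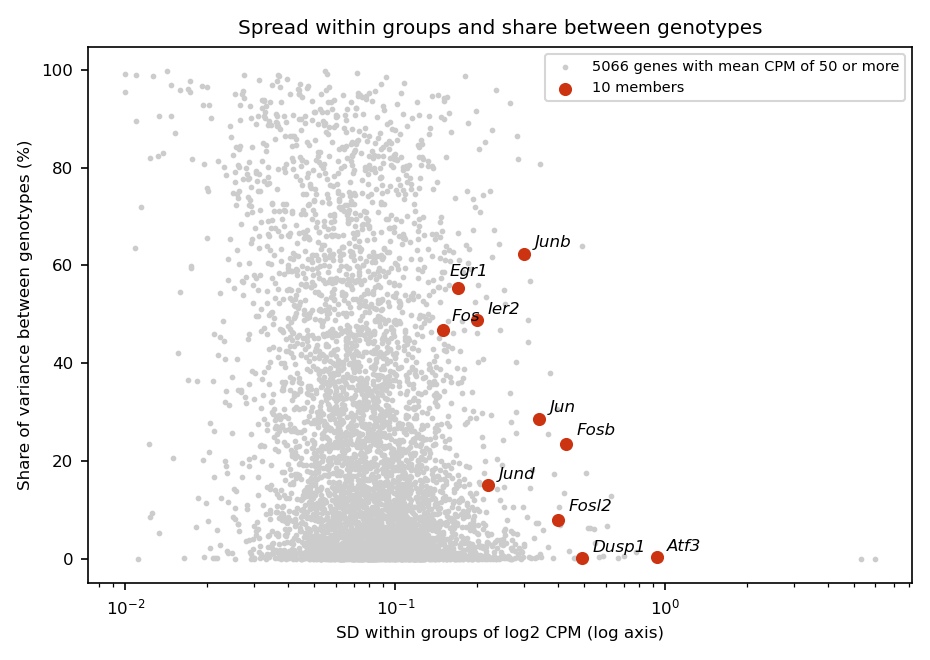
Share of the variance of log2 CPM between genotypes in percent (vertical axis) against the SD of log2 CPM within groups (horizontal log axis) for 5066 genes with a mean of 50 CPM or more (grey) and the 10 members (red). The members lie at the right, at an SD of 0.15 or more, and range from 0.145% (Dusp1) to 62.4% (Junb) between genotypes.

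Start-site sequence of the members is shown for Fos, for Junb, which differed most between genotypes, for Atf3, which varied most between libraries, and for Dusp1, which holds a full cyclic AMP response element. RefSeq promoter windows of GRCm38.p6 (the mm10 build) were found for 8 of the 10 genes, all but Egr1 and Ier2, and each runs from 250 bases before to 50 bases after the start. The 200 bases before the start (positions -200 to -1) are printed 5′ to 3′ on the gene's strand. Capitals mark the short element TGACG on either strand (CGTCA where it is on the other strand), the full element TGACGTCA and the TATA box TATAAA. The windows are chr12:85473690-85473889 (plus) for Fos, chr8:84978749-84978948 (minus) for Junb, chr1:191183334-191183533 (minus) for Atf3 and chr17:26508473-26508672 (minus) for Dusp1.
Fos: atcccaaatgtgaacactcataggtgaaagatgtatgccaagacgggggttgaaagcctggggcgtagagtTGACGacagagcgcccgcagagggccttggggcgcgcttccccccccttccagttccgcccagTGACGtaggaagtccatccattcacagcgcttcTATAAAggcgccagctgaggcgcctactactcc
Junb: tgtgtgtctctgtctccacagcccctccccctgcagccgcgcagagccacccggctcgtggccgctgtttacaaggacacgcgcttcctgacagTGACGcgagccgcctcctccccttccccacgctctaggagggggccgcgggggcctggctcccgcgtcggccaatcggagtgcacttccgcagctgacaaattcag
Atf3: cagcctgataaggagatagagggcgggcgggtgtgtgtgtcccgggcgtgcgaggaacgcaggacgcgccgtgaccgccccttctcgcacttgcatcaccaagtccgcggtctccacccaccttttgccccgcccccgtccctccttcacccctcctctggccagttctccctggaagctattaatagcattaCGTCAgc
Dusp1: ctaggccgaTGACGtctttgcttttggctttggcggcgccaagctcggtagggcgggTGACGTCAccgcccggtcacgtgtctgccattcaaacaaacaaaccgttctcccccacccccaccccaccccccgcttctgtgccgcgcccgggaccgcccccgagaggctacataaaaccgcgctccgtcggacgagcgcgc

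TGACG was found in 5 of the 8 windows (Fos, Fosb, Junb, Atf3 and Dusp1), beside 20.8% of all 32851 windows of the same 300 bases in the table. Fos held it at -129 and -66, with TATAAA at -33, and Dusp1 held it at -191 and, within TGACGTCA, at -143. TATAAA was in 2 of 8 windows, beside 13.6% of all, but in Junb it lay at positions 1 to 6, after the start and outside the printed stretch. The full element, which contains the short element on both strands, was in 1 of 8 windows and in 1.79% of all windows. The AP-1 site (TGACTCA or TGAGTCA), the ETS core CCGGAAG and the CArG box bound by serum response factor were in none of the 8, beside 5.2%, 8.86% and 1.63% of all windows. These are matches of letters in short windows and say nothing of binding. Sequence further from the start was not searched, nor were Egr1 and Ier2, so no match here does not show that a gene lacks the site. Windows with TGACG belong both to members whose groups did not overlap (Fos, Junb) and to those that followed control replicate 1 and Grhl2_cKO replicate 10 (Fosb, Atf3, Dusp1).

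Other immediate early genes were read from a list of 39, 39 of them tested. Phlda1 was called lower in Grhl2_cKO and none higher, 1 of 39 beside 2.39% of tested genes called lower. The log2 fold change was below 0 for 35, beside 51.5% of tested genes, with a median of -0.19. Without control replicate 1 it was below 0 for 13 of 39, beside 48.5% of tested genes, and the median was 0.11, so the direction of the list's median turned with that library. Control replicate 1 was the highest library for 34 of the 39, beside 20.3% of all tested genes, and it and Grhl2_cKO replicate 10 were the top pair for 26. The list's level in each library, computed as for the members, was 0.57 in control replicate 1, -0.23 in replicate 3 and -0.06 in replicate 7, and -0.19, -0.30 and 0.22 in Grhl2_cKO 1, 5 and 10. The 3 highest libraries and the lowest came in the same order as for the members.

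Phlda1 encodes a pleckstrin homology-like domain protein. It stood at 93.7, 90.2 and 104 CPM in controls and at 77.7, 69.7 and 78.75 CPM in Grhl2_cKO, and unlike the members it was not highest in control replicate 1. It fell by 0.35 ± 0.07 on the log2 scale (n = 3 per group, edgeR adjusted p = 0.0298), and 6 of its 18 alternatives did not call it: the male libraries alone and each fit without a library other than control replicate 1 (adjusted p 0.00532 to 0.147 over all). Arc, an early gene known from synapses, held 19.4, 14.9 and 16.7 CPM in controls and 8.72, 11.5 and 13.0 CPM in Grhl2_cKO, and its log2 fold change of -0.62 ± 0.16 missed the threshold (edgeR adjusted p = 0.0641), though it was called with DESeq2 and robust quasi-likelihood (0.0118 and 0.0489; 0.0118 to 0.227 over its alternatives). Zfp36, whose protein speeds the decay of early transcripts, stood at 469, 284 and 314 CPM in controls and 258, 192 and 247 CPM in Grhl2_cKO (log2 fold change -0.61 ± 0.17, edgeR adjusted p = 0.0997). In CPM, the groups did not overlap for 6 of the 39 genes, beside 9.89% of tested genes, each lower in Grhl2_cKO: these 3 and Btg1, Rhob and Errfi1, the last 3 named after their values were seen.

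The orphan receptor gene Nr4a1 followed the 2 high libraries, at 722, 272 and 357 CPM in controls and 303, 267 and 494 CPM in Grhl2_cKO (log2 fold change -0.34 ± 0.33, edgeR adjusted p = 0.808; 0.18 without control replicate 1). Ier3, a survival gene, held 49.7 CPM in control replicate 1 and 28.2 CPM in Grhl2_cKO replicate 10, against 17.5 to 19.5 CPM in the other 4. Ccn1, a secreted matrix protein gene, held 1048 and 781 CPM in these 2 libraries against 534 to 659 CPM in the other 4. Klf4, Myc and Btg2 did not pass either: on the log2 scale Klf4 differed by 0.10 ± 0.21 (edgeR adjusted p = 0.954), Myc by 0.24 ± 0.16 (0.672) and Btg2 by -0.17 ± 0.15 (0.793). Nor did Egr2, a relative of Egr1, at -0.31 ± 0.24 (0.741).

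**Figure D4:**
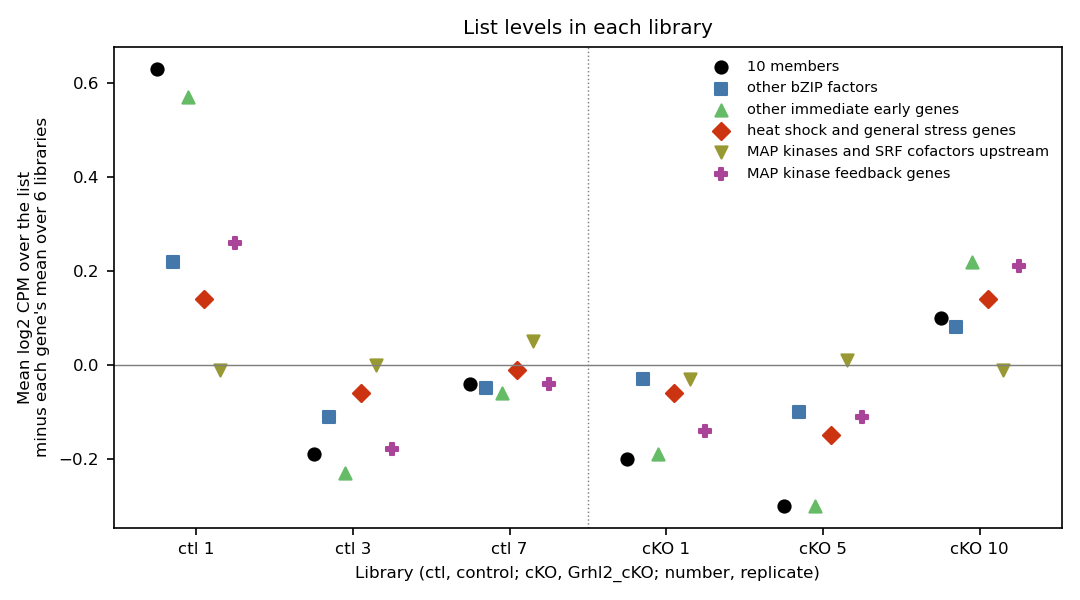
Level of the 10 members and of 5 further gene lists in each library (vertical axis: mean over the list of log2 CPM minus each gene's mean over the 6 libraries; horizontal axis: library, controls left and Grhl2_cKO right of the dotted line). The members reach 0.63 and the other immediate early genes 0.57 in control replicate 1, while the upstream kinases stay between -0.03 and 0.05.

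Of 19 other basic leucine zipper genes, 18 were tested and none was called by edgeR, beside 3.62% of tested genes. None had an unadjusted edgeR p under 0.05, beside 7.29% of tested genes lower and 899 of 14842 higher. The median log2 fold change was -0.05. Cebpb, an early zipper factor, and Nfe2l2, the oxidative stress factor, had the smallest p, at -0.32 ± 0.16 and -0.11 ± 0.06 (edgeR adjusted p = 0.44 and 0.496). Fosl1, the remaining Fos family gene, was too low to test, with 43 counts in all: 1.49 CPM in control replicate 1, 0.77 CPM in Grhl2_cKO replicate 10 and 0.06 to 0.32 CPM in the other 4. The small Maf genes Maff and Mafk, named after their values were seen, held 76.75 and 55.0 CPM in control replicate 1 and 61.6 and 44.5 CPM in Grhl2_cKO replicate 10, against 23.6 to 37.1 CPM for the pair in the other libraries.

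The list of 19 MAP kinases and SRF cofactors, which lie upstream of early gene induction, varied little. None of its members was called by edgeR, beside 3.62% of tested genes. At an unadjusted edgeR p under 0.05 there was also none, beside 7.29% of tested genes lower and 899 of 14842 higher. The median log2 fold change was -0.03 and the median SD within groups was 0.07. Control replicate 1 was highest for 2 of the 19. Srf, the serum response factor gene, stood at 134, 115 and 146 CPM in controls and 110.0, 117 and 131 CPM in Grhl2_cKO (edgeR adjusted p = 0.665), and the ribosomal S6 kinase genes Rps6ka3 and Rps6ka1 had the smallest p, at -0.14 ± 0.07 and -0.12 ± 0.06 (edgeR adjusted p = 0.452 and 0.512).

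Among 14 MAP kinase feedback genes, relatives of Dusp1 and the Sprouty genes, none was called by edgeR, beside 3.62% of tested genes. At an unadjusted edgeR p under 0.05 there was 1 lower and 1 higher, beside 7.29% of tested genes lower and 899 of 14842 higher. The median log2 fold change was -0.02, and 0.07 without control replicate 1. Dusp7, an ERK phosphatase gene, was higher in each Grhl2_cKO library than in any control (log2 fold change 0.22 ± 0.07, edgeR adjusted p = 0.181), whereas Dusp14 had a log2 fold change of -0.37 ± 0.16 (0.336). The level of the list was 0.26 in control replicate 1 and 0.21 in Grhl2_cKO replicate 10, and between -0.18 and -0.04 in the other libraries.

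Heat shock and general stress genes, which also respond to handling, had no call by edgeR among 21, beside 3.62% of tested genes. At an unadjusted edgeR p under 0.05, 1 was lower and 2 were higher, beside 7.29% of tested genes lower and 899 of 14842 higher. The median log2 fold change was -0.01 (0.09 without control replicate 1), and the level of the list was 0.14 in both control replicate 1 and Grhl2_cKO replicate 10 and between -0.15 and -0.01 elsewhere. The inducible chaperone genes Hspa1a and Hspa1b were low, at 1.66 to 5.16 and 3.66 to 7.29 CPM, and both were highest in control replicate 7. As near-identical copies their counts are uncertain, and neither passed (log2 fold change -0.92 ± 0.26 and -0.41 ± 0.23, edgeR adjusted p = 0.102 and 0.558). Ddit4, a stress gene that restrains mTOR, had a log2 fold change of 0.21 ± 0.08 (0.255).

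Across the 6 libraries, the genes outside all lists with the closest course to the level of the members were taken from 11591 tested genes with a mean of 50 counts or more. By Pearson's r of log2 CPM over 6 libraries, given as a description, they were Atg101 (0.996), Gucy1a1 (0.995), Man2b1 (0.994), Jph1 (0.992), Tceal1 (0.989), Pim3 (0.989), Fth1 (0.986) and Pepd (0.985). A library with an extreme value, as control replicate 1 has here, weighs heavily in each r. Most of these genes varied little: Atg101 ran from 22.4 to 28.6 CPM and Man2b1 from 87.3 to 99.0 CPM. Pim3, a growth-factor-induced kinase gene, had a range like that of the members, at 172 CPM in control replicate 1 and 85.0 to 111 CPM in the others. Fth1 has many processed copies in the genome and its counts are uncertain.

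Of the sums of cell type markers, only the erythroid one was highest in the 2 high libraries. The 6 erythroid markers found of 7 summed to 57.3 CPM in control replicate 1 and 57.7 CPM in Grhl2_cKO replicate 10, against 19.7 to 44.4 CPM in the other 4, and Hbb-y was at 0 in some libraries. The nuclear RNA Malat1 was lowest in the same 2 libraries, at 433 and 345 CPM against 537 to 617 CPM. The 4 mesothelial markers summed to 78.5 CPM in control replicate 1 but to 19.5 CPM in Grhl2_cKO replicate 10 (39.7 to 45.9 CPM in the other controls and 20.9 to 60.7 CPM in the other Grhl2_cKO libraries). Heart muscle markers summed to 158.7 to 186.3 CPM in controls and 214.5 to 401.8 CPM in Grhl2_cKO, with the highest in Grhl2_cKO replicate 1. Myh7 alone held 139 to 147 CPM in controls and 192 to 201 CPM in Grhl2_cKO. Every other heart muscle marker overlapped between genotypes and was highest in Grhl2_cKO replicate 1. Tnni3, for one, held 1.86 and 1.60 CPM in Grhl2_cKO replicates 5 and 10, against 2.44 to 3.29 CPM in controls. Nerve markers summed to 2.71 to 5.38 CPM in controls and 6.75 to 11.4 CPM in Grhl2_cKO. Myh7 of the 7 heart muscle and Tubb3 and Elavl3 of the 5 nerve markers were called higher by edgeR. These genes and Tnni3 were named after their values were seen. The part of these cells or of RNA quality in the levels of the early genes was not tested.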

How the data were processed

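The authors deposited raw counts per Entrez gene for 6 libraries, with a gene length. Per the submitters' processing notes, bcl2fastq 2.17.1.14, featureCounts, edgeR 3.16.5 and limma 3.30.12 were used on mm10. The sources used here do not give the aligner or strand setting. RefSeq matched 25275 of 27179 identifiers to symbols.

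The deposited counts were tested with edgeR 4.0.16 (R 4.3.3): TMM factors, filterByExpr (minimum count 10, minimum total 15), quasi-likelihood test with legacy set to FALSE, no covariate, Benjamini-Hochberg adjustment over 14842 genes, threshold 0.05. The SE was obtained by dividing the absolute log2 fold change by the root of the F statistic. CPM uses TMM-scaled library sizes, and log2 CPM a prior count of 2. Alternatives were other scalings and filters, DESeq2 1.42.0, limma-voom (limma 3.58.1), robust and legacy settings, sex as a covariate, male libraries alone and each library left out. The script was tested on simulated data. Replicates differed beyond counting noise (chi-square per degree of freedom 7.72 to 12.9).

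Members and lists were chosen with earlier results of these data known. Named genes are the 10 members; from each list, those called (up to 4) or, with fewer than 2 called, the 2 with the smallest p; fixed names; and the 8 genes of closest course.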

Additional observations from a re-analysis of the deposited data

How the results depend on the processing

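The direction and call of the members held in 172 of 180 values over 18 alternatives. As no member was called in the main fit, a value held if it kept its sign and stayed uncalled. The alternatives reuse the same libraries, so this share is no independent measure of how firm the values are. Leaving out each library gave 249 to 504 called genes against 537 (302 without control replicate 3, 335 without 7, 257 without Grhl2_cKO replicate 5 and 249 without 10), and 0 to 1 called members against 0. DESeq2 called 1 member. Over the fits without 1 library the log2 fold change ran from -0.44 to 0.07 for Fosl2, -0.77 to 0.65 for Atf3, -0.34 to 0.37 for Dusp1, -0.65 to 0.18 for Nr4a1, -0.73 to 0.16 for Ier3, -0.28 to 0.05 for Btg2 and -0.45 to 0.07 for Ccn1, each above 0 only without control replicate 1. Klf4 ran from -0.10 to 0.40, below 0 without control replicate 3 (-0.03) or 7 (-0.03) or Grhl2_cKO replicate 10, and Malat1 from -0.25 to 0.06, above 0 without Grhl2_cKO replicate 10. An alternative chosen after seeing the data left out both control replicate 1 and Grhl2_cKO replicate 10: 350 genes were called, 1 member (Junb, edgeR adjusted p = 0.0453), and the sign changed for Atf3 (0.20), Dusp1 (0.29) and Btg2 (0.06). Each such fit has fewer samples; other causes were not tested. The level of the members by library moved by less than its within-genotype SD, pooled over both genotypes, under each scaling, prior count and summary tried. Control replicate 1 is part of that SD. No paired analysis was possible because the genotypes share 1 replicate number. Depth left Fosl1 too low to test.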

Other observations

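Csrnp1 and Klf6, both transcription factor genes of the list of other immediate early genes, were chosen here after their values were seen. Csrnp1 held 84.7 CPM in control replicate 1 and 65.6 CPM in Grhl2_cKO replicate 10, against 21.4 to 34.2 CPM in the other 4 libraries. Klf6 held 614 and 363 CPM in the same 2 libraries, against 209 to 264 CPM in the others. Neither passed the genotype test of edgeR.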
